A study of Mus musculus with 2 samples.

Results

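The 9 genes described here encode proteins that carry, make, destroy or read out retinoic acid. They are the nuclear receptors Rara, Rarb, Rxra, Rxrb and Rxrg, the binding proteins Rbp4 and Crabp1, and the enzymes Aldh1a1 and Cyp26b1. They were taken by symbol from 32531 gene symbols in the deposited counts, and all 9 were found. The RNA was total RNA of dissected dorsal striatum, the input of a ribosome purification, from mice in a study of intravenous cocaine self-administration with long daily access. There is 1 library for mice with escalating cocaine intake and 1 for mice without escalation. Both groups were Drd1-TRAP mice of the CP73 line, which express the EGFP/Rpl10a ribosome tag under Drd1 control, on an FVB/N-Swiss Webster background crossed to C57BL/6. The tag does not restrict these libraries to Drd1 cells, and neither the number of animals behind each library nor their age was given in the sources used here.

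Retinol travels in blood on Rbp4, is oxidised in cells to retinal and then, by enzymes of the Aldh1a family, to retinoic acid. Crabp1 binds retinoic acid in the cytoplasm, Cyp26 enzymes break it down, and retinoic acid that reaches the nucleus activates retinoic acid receptors (RARs), which sit on DNA as pairs with retinoid X receptors (RXRs). Rarb and Rxrg are prominent in striatal projection neurons, and mice that lack both have less dopamine receptor RNA in ventral striatum.

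RARs bind direct repeats of a half-site of 6 bases, and Rarb is the textbook case of a receptor gene with such a repeat in its own promoter. The RefSeq promoter table for GRCm38.p6, the same build as mm10, gave 17 promoters for the 9 genes, each reaching from 250 bases before a start to 50 after it. The promoters below belong to Rarb, the RAR gene with the most reads, and to Aldh1a1 and Crabp1, the genes with the largest differences between the libraries. For Aldh1a1, which has a pair of listed starts, the downstream one is shown. They are written 5′ to 3′ on the gene's strand, with each half-site (AGGTCA or else AGTTCA or else GGTTCA or else GGGTCA, on either strand) in capitals. The Rarb window is chr14:16575427-16575726 on the minus strand, the Aldh1a1 window chr19:20601718-20602017 on the plus strand and the Crabp1 window chr9:54764498-54764797 on the plus strand.
Rarb: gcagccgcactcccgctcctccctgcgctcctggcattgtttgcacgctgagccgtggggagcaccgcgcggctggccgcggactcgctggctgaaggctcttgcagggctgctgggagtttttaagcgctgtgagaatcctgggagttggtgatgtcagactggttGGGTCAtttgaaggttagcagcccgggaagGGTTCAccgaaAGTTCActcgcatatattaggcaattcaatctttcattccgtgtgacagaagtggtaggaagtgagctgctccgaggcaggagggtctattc
Aldh1a1: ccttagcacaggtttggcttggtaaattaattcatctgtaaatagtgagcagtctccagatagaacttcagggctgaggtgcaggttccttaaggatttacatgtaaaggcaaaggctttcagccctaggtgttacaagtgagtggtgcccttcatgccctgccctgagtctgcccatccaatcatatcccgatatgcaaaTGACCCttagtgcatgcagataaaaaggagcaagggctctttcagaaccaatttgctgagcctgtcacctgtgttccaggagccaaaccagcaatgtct
Crabp1: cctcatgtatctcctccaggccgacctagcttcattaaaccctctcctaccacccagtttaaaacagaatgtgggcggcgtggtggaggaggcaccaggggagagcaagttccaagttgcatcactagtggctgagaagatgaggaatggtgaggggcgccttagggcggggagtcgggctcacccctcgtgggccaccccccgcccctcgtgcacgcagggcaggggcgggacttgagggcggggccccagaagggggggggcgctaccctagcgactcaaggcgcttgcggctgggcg

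The Rarb window held 3 half-sites, and a pair of them formed a direct repeat with a spacer of 5 bases, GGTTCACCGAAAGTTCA, that begins 53 bases before the start (chr14:16575513-16575529). Of 32851 promoters of 300 bases in the table, 0.0974% held a repeat of these half-sites with a 5-base spacer on either strand, and 43.7% held at least 1 half-site. Among the 17 promoters of the 9 genes, the Rarb repeat was the one match for spacers of 1, 2 or 5 bases. The Aldh1a1 window shown held 1 half-site on the other strand and the window at its upstream start (chr19:20492333-20492632) held 0, as did the Crabp1 window. A match is a description of letters in a window of this size, and nothing about binding was measured.

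Reads given to genes numbered 9548358 for escalating mice and 9376097 for nonescalating mice. Levels are given as CPM, read counts relative to library sizes that were adjusted with edgeR's TMM factors of 1.13 and 0.882. The labelled tissue fits its neuronal markers. The 16 projection neuron markers summed to 12728 CPM in escalating mice and 11920 CPM in nonescalating mice. By contrast, 10 cortical markers summed to 118 and 204 CPM. The 8 choroid plexus markers summed to 94.5 and 178 CPM, mostly from Enpp2 (66.2 and 162 CPM), and Ttr of that list had 0 counts in both. In glial markers the libraries were not alike. Microglial markers summed to 34.9 CPM in escalating mice and 1552 CPM in nonescalating mice, and astrocyte markers to 2634 and 16538 CPM. With 1 library per group there is no replicate check and no p-value, so each difference is one between these libraries. Intervals are exact 95% Clopper-Pearson intervals for the split of a gene's reads and cover counting error only. A gene whose reads over both libraries summed to at least 50 was called higher or lower at 1.5-fold or more with an interval that did not include 1.

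Of the 8 members with at least 50 counts, 1 was called higher (Crabp1) and 1 lower (Aldh1a1) in the escalating library. Over all 12213 genes with that many counts, 9.33% were called higher and 17.1% lower, 26.5% in all, so the members' shares are near the background. With counts divided by total assigned reads instead (total-read scaling), 4 members were called higher and 1 lower, beside 31.5% higher and 9.41% lower among all measured genes. That scaling puts the median log2 ratio of all measured genes at 0.38, against 0.02 with TMM, and 77.0% of all calls were then higher, against 35.3% with TMM. Total-read scaling raises every ratio by one common factor, so TMM ratios slightly below 1, such as those of Rara, Rxrg, Scarb1 and Ncor1, lie above 1 with it. Unless another scaling is named, ratios are given on the TMM scale.

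**Figure D1:**
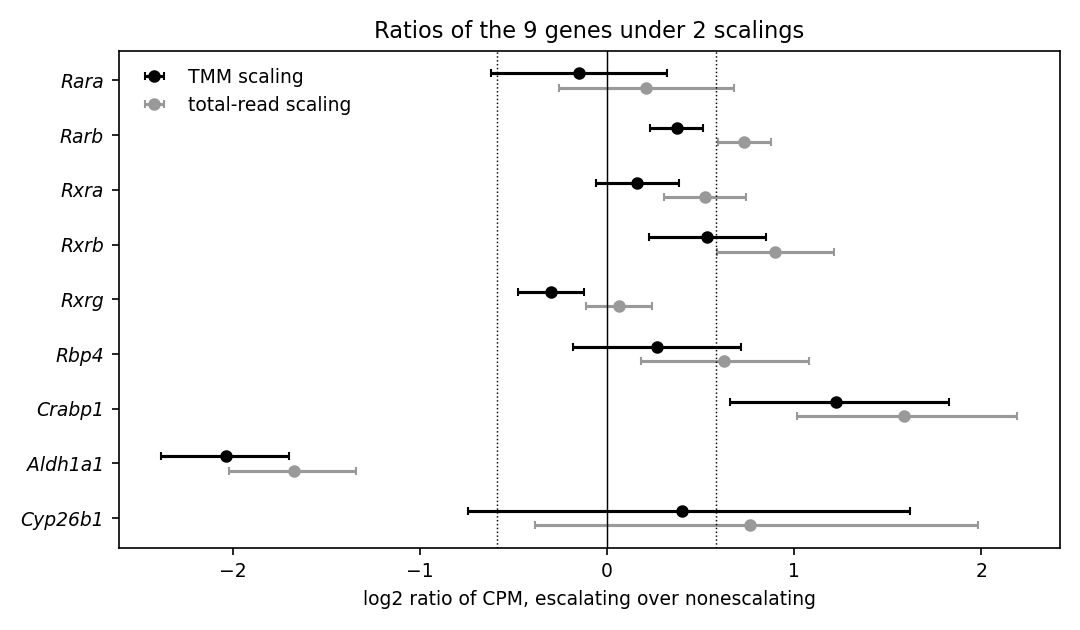
Log2 ratio of CPM, escalating over nonescalating, for each of the 9 genes with its 95% counting interval, under TMM scaling (black) and total-read scaling (grey). Dotted lines mark 1.5-fold; Aldh1a1 lies left of them at -2.03 and Crabp1 right of them at 1.21 (TMM, pseudocount 0.5), while Rara and Rxrg change sign between the scalings.

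Among the RARs, Rarb (chromosome 14, 16430839 to 16819156, minus strand; this and the later gene positions are GENCODE M21 positions on mm10) stood far above Rara per kilobase of exon, at 19.1 against 1.82 CPM in escalating mice and 14.8 against 2.02 CPM in nonescalating mice. It had 1090 counts in escalating mice and 644 in nonescalating mice, or 101 and 77.8 CPM. The escalating level was 1.29-fold higher (1.17 to 1.43), which excludes equal levels by counting error but is under 1.5-fold; it was called higher, at 1.66-fold (1.51 to 1.83), with total-read scaling. Rara (chromosome 11, 98927818 to 98974942), the receptor form found in most tissues, had 86 and 73 counts, or 7.95 and 8.82 CPM. Its ratio of 0.901 (0.652 to 1.25) was below 1 with TMM and above 1 with total reads (1.16), and its interval included 1 under both. Rarg, the remaining RAR gene, which was not a member, had 66 and 41 counts and a ratio of 1.23 (0.821 to 1.86).

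The Rarb count carries a limit of its own. In GENCODE M21, 34.1% of its exon bases (1793 bases) also lie in exons of Top2b, a DNA topoisomerase gene that runs the other way. Whether reads were counted by strand is not given in the sources used here, and without it such reads count for neither gene. Reads in more than 1 gene made up 8.06% of all listed reads in escalating mice and 18.9% in nonescalating mice. Top2b itself had 899 and 922 counts, a ratio of 0.746 (0.679 to 0.818). The part of this overlap in the Rarb ratio was not tested. None of the other 8 members shared exon bases with another gene in GENCODE M21. The gene models behind the counts are not given and may differ.

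Per kilobase of exon, Rarb made up 85.5% of RAR reads in the escalating library and 82.3% in the nonescalating library. Rara made up 8.13% and 11.2%, and Rarg 6.39% and 6.47%. Both libraries were thus dominated by Rarb. Within a library no scaling is needed: the number of Rarb reads per Rara read was 1.44 times as high in the escalating library (1.02 to 2.02). The summed RAR reads were 1242 and 758, a ratio of 1.25 (1.14 to 1.37) with TMM and of 1.61 (1.47 to 1.76) with total reads.

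The RXRs, obligate partners of RARs and of several other nuclear receptors, differed in makeup. Rxrg (chromosome 1, 167598384 to 167639623), the RXR form with the most restricted tissue range, had 545 counts in escalating mice and 512 in nonescalating mice, or 50.4 and 61.9 CPM. Its ratio was 0.814 (0.720 to 0.920), and with total-read scaling it was 1.05 (0.925 to 1.18), on the other side of 1. Rxra (chromosome 2, 27676440 to 27762957) had 420 and 287 counts and a ratio of 1.12 (0.961 to 1.30). Rxrb (chromosome 17, 34031812 to 34038399), the broadly expressed form, had 250 and 132 counts, or 23.1 and 16.0 CPM. It was 1.45-fold higher (1.17 to 1.80), just under the threshold with TMM, and was called higher, at 1.86-fold (1.5 to 2.31), with total-read scaling and also with upper-quartile scaling. Summed over the 3 genes, 1215 and 931 reads gave 112.3 and 112.5 CPM, a ratio of 0.998 (0.915 to 1.09) with TMM, and a ratio of 1.28 (1.18 to 1.40) with total-read scaling.

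Rxrg took 62.9% of RXR reads per kilobase in the escalating library and 72.2% in the nonescalating library, while Rxrb took 16.7% and 10.8% and Rxra 20.4% and 17.0%. The Rxrg share was smaller in the escalating library whichever transcript length was used, although by coding length it was 46.1% and 56.1%. The reads of Rxrb per read of Rxrg were 1.78 times as high in the escalating library (1.39 to 2.29), and those of Rxra per Rxrg 1.37 times (1.13 to 1.67). Rxrb and Rxra thus both had more reads relative to Rxrg in the escalating library. Rarb reads per Rxrg read numbered 2.0 in escalating mice and 1.26 in nonescalating mice, a ratio of 1.59 (1.36 to 1.86).

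**Figure D2:**
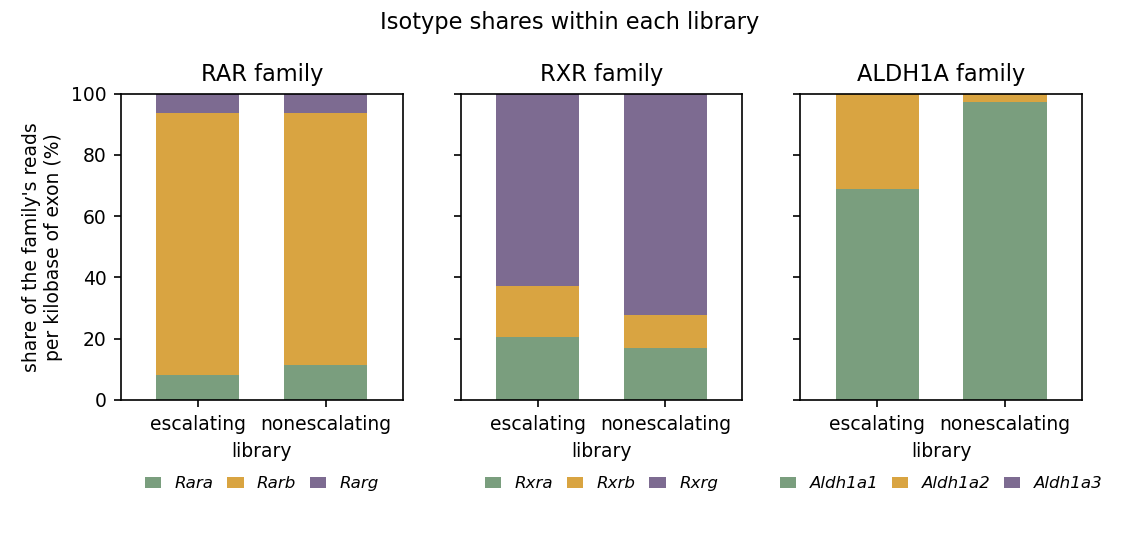
Share of each family's reads per kilobase of exon that came from each gene, in the escalating and nonescalating libraries, for RARs, RXRs and the Aldh1a enzymes. Rarb holds 85.5% and 82.3% of its family, Rxrg 62.9% and 72.2%, and Aldh1a1 69.0% and 97.2%. By coding length Aldh1a1 holds 83.4% and 98.7%.

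The binding proteins differed from each other. Crabp1 (chromosome 9, 54764748 to 54773110) had 104 counts in escalating mice and 34 in nonescalating mice, or 9.61 and 4.11 CPM. It was called higher, at 2.34-fold (1.57 to 3.55), and also under every other scaling tried; 98.9% of measured genes had a lower log2 ratio. Rbp4 (chromosome 19, 38116629 to 38125281) had 110 and 70 counts and a ratio of 1.20 (0.882 to 1.65), whose interval included 1; with total reads it was called higher, at 1.54-fold (1.13 to 2.11). Rbp4 is best known as the plasma carrier of retinol, made mostly in liver.

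Marker lists of other neurons were set beside Crabp1. Among 9 measured interneuron markers 2 were called higher and 1 lower (5 and 1 with total reads), with a median log2 ratio of 0.36 and a summed level of 263.6 and 250.3 CPM. Among 7 measured cortical markers 4 were called higher and 2 lower (4 and 1 with total reads), with summed levels of 118 and 204 CPM. The direction of that sum rests on Rorb, which had 506 and 1342 counts; the other 9 cortical genes summed to 70.8 CPM in escalating mice and 42.1 CPM in nonescalating mice, a split made after their values were seen. The interneuron marker Th, tyrosine hydroxylase, had 102 and 40 counts, and the cortical marker Tbr1 139 and 35. Both are among the markers called higher. Log2 ratios ran from -1.13 to 0.95 over the measured interneuron markers and from -1.79 to 1.93 over the cortical ones. Among all measured genes 9.33% were higher and 17.1% lower with TMM, and 31.5% and 9.41% with total reads. The part of these cells in the Crabp1 ratio was not tested.

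Aldh1a1 (chromosome 19, 20492715 to 20643465), which oxidises retinal to retinoic acid, showed the widest gap of the 9 genes. It had 97 counts in escalating mice and 304 in nonescalating mice, or 8.96 and 36.7 CPM, and was called lower by 4.10-fold (3.25 to 5.21). Only 2.45% of measured genes had a lower log2 ratio. It was called lower under every scaling tried. Aldh1a7, a neighbouring relative of Aldh1a1, had 0 and 5 counts. Reads that align to more than 1 place were not given to genes, so reads that such relatives share may be missing from these counts.

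Marker genes of glia and vessels were lower alongside Aldh1a1. All 13 astrocyte markers were called lower, with summed levels of 2634 CPM in escalating mice and 16538 CPM in nonescalating mice and log2 ratios from -3.22 to -0.79, and none was at 0 in either library. All 12 microglial markers were called lower, at 34.9 and 1552 CPM in sum, and Trem2 had 0 counts in the escalating library. Of 10 endothelial markers 9 were lower (79.8 and 157 CPM), and of 10 oligodendrocyte markers 7 (1459 and 3902 CPM). With total-read scaling the lower markers numbered 11 of 13 for astrocytes, 12 of 12 for microglia, 5 of 10 for endothelium and 5 of 10 for oligodendrocytes. Of 11 mural and meningeal markers 5 had enough reads, and of these 0 were higher and 2 lower (48.2 and 93.8 CPM in sum over the list). In bulk tissue, fewer cells of a type and less RNA per cell cannot be told apart. With 1 library per group, a difference between the preparations of the libraries cannot be told apart from these either. The part of these cells in the Aldh1a1 ratio was not tested. Aldh1a1 is also known from midbrain dopamine neurons, for which 8 genes were listed. Pitx3, Foxa2 and En1 had 0 counts in both libraries and the dopamine transporter Slc6a3 had 0 and 3. The other 4 of that list's 8 genes had enough reads. Th and Nr4a2 were called higher, Slc18a2 (56 and 69 counts) was called lower, and Ddc (65 and 51) was not called. With total reads 2 were higher and 0 lower. The list summed to 37.4 and 28.5 CPM, and the part of these neurons and their axons in the Aldh1a1 ratio was not tested.

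The other retinal dehydrogenases were sparse. Aldh1a2 had 20 counts in escalating mice and 4 in nonescalating mice, a ratio of 3.82 (1.28 to 15.4) on too few reads to enter the calls, and Aldh1a3 had 0 in both. A count of 0 allows up to 3 counts, or 0.277 and 0.363 CPM. Aldh1a1 made up 69.0% of the family's reads per kilobase of exon in the escalating library and 97.2% in the nonescalating library. The escalating share depends on the length used. By longest transcript the shares were 82.3% and 98.6%, and by coding length 83.4% and 98.7%. The summed family reads, 117 and 308, were lower by 3.44-fold (2.77 to 4.30). Cyp26b1 (chromosome 6, 84571414 to 84593908), the main Cyp26 enzyme of adult brain, had 19 and 11 counts, or 1.76 and 1.33 CPM. Its ratio of 1.32 (0.597 to 3.07) means that a difference was not detectable at this depth. Cyp26a1 had 0 and 2 counts, and Cyp26c1 0 in both. Aldh1a1 reads per Cyp26b1 read were lower in the escalating library, by 5.39 times (2.34 to 13).

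**Figure D3:**
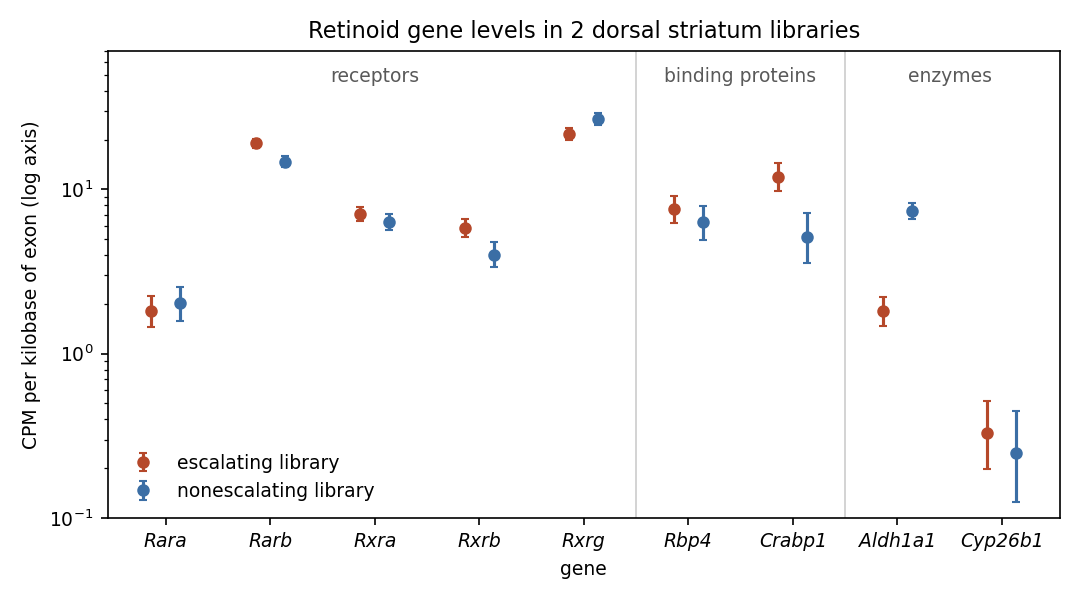
Level of each of the 9 genes in CPM per kilobase of exon (log axis) in the escalating (red) and nonescalating (blue) library; bars are exact 95% Poisson intervals of the count. Rarb and Rxrg lie highest in both libraries and Cyp26b1 lowest, while Aldh1a1 is at 1.82 in escalating mice and 7.44 in nonescalating mice.

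Levels per kilobase of exon put the genes in a similar order in both libraries, apart from Crabp1 and Aldh1a1. In the escalating library Rxrg led at 21.9 CPM per kilobase, followed by Rarb (19.1), Crabp1 (12), Rbp4 (7.57), Rxra (7.11), Rxrb (5.82), Rara (1.82), Aldh1a1 (1.82) and Cyp26b1 (0.328). Rbp4 and Rxra, and Rara and Aldh1a1, were neighbours there that did not differ beyond counting error. In the nonescalating library Rxrg (26.9) and Rarb (14.8) were again first, then Aldh1a1 (7.44), Rxra (6.35), Rbp4 (6.30), Crabp1 (5.12), Rxrb (4.02), Rara (2.02) and Cyp26b1 (0.248). From Aldh1a1 down to Rxrb, no neighbours in that order differed beyond counting error. Aldh1a1 thus stood next to last in the escalating library and just below the leading pair in the nonescalating one. The order depends on the length used, which counting error does not cover. Rarb has 5265 exon bases but a longest transcript of 3108, against 2297 and 2110 for Rxrg. By longest transcript Rarb stood above Rxrg in the escalating library, and by coding length it did so in both libraries.

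Of all 36 pairs of members, 20 had a ratio of reads that differed between the libraries beyond counting error. The share of such pairs among other genes was not computed, so this number does not set the members apart. Aldh1a1 did so in 8 of its 8 pairs and Crabp1 in 7 of 8, the exception being its pair with Cyp26b1. Crabp1 reads per Aldh1a1 read showed the widest gap, 1.07 in escalating mice and 0.112 in nonescalating mice, a ratio of 9.54 (5.99 to 15.5). Without these genes, 6 of 21 pairs differed, and 4 of the 6 included Rxrg. These ratios do not depend on how the libraries are scaled to each other.

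**Figure D4:**
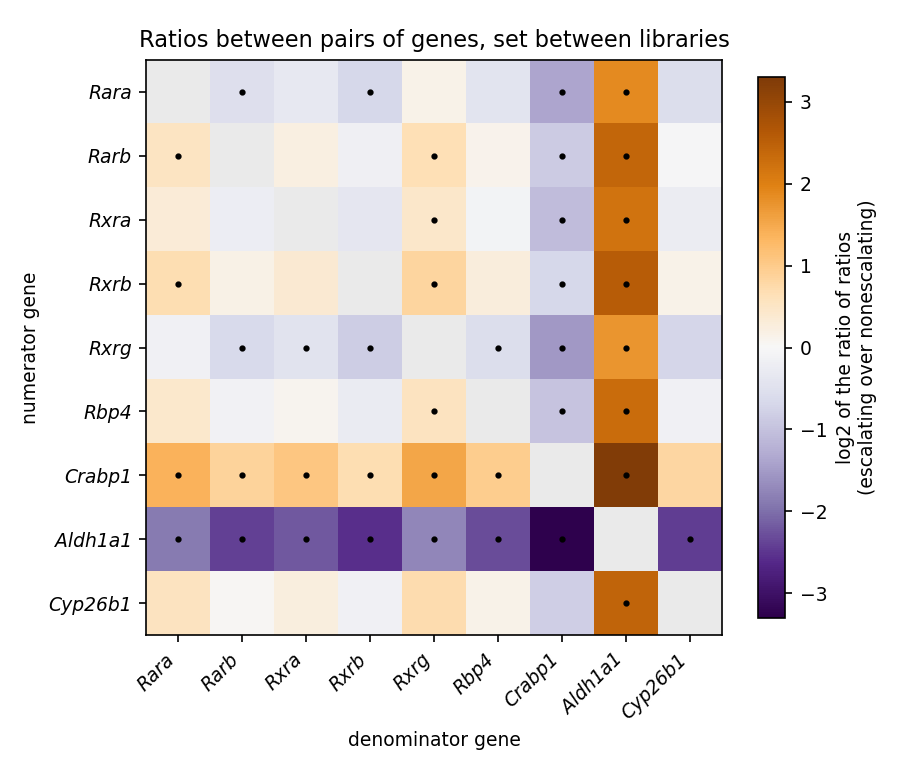
For each pair of the 9 genes, the log2 of the reads of the row gene per read of the column gene in the escalating library over the same in the nonescalating library; dots mark pairs whose 95% interval does not include no difference. Dots fill the Aldh1a1 row (8 of 8) and nearly all of the Crabp1 row (7 of 8). The share of dotted pairs among other genes was not computed.

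The rest of the retinoid pathway was described with a list of 34 further genes, of which 15 had at least 50 counts. Of these, 0 passed the call upward and 6 downward, and their median log2 ratio was -0.39, beside 0.02 for all measured genes, of which 9.33% were higher and 17.1% lower. With total-read scaling 2 were higher (Fabp5 and Rarg) and 3 lower (Dhrs3 and Rpe65 among them), with a median of -0.03, beside 31.5% higher and 9.41% lower among all measured genes. Dhrs3, which reduces retinal back to retinol, had 76 and 206 counts and was lower by 3.54-fold (2.71 to 4.67). Rpe65, the retinoid isomerase of the eye, had 18 and 59 counts and was lower by 4.29-fold (2.49 to 7.72).

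Among the lower genes of the pathway, 3 missed the call with total reads. They were Rlbp1, a retinal-binding protein, with 31 and 45 counts, Rdh10, which oxidises retinol to retinal, with 41 and 56, and Stra6, the cell-surface receptor for Rbp4, with 55 and 66. Their TMM ratios were 0.527 (0.322 to 0.851), 0.560 (0.365 to 0.853) and 0.637 (0.437 to 0.925). The most abundant pathway genes were not called: the dehydrogenase gene Adh5 had 334 and 245 counts (ratio 1.04, 0.881 to 1.23), and the lipoprotein receptor gene Scarb1 had 176 and 167 (0.806, 0.648 to 1.0). The retinol-esterifying enzyme Lrat had 0 and 7 counts. The astrocyte markers beside these genes summed to 2634 and 16538 CPM, as above, and their part was not tested.

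A list of receptor partners, other nuclear receptors and coregulators, 23 of 29 with enough reads, had a median log2 ratio of 0.01. In it 1 was called higher and 3 lower (total-read scaling gave 6 and 3), against the same all-gene shares. Ncor1 and Crebbp, a corepressor and a coactivator, were the most abundant, with 3464 and 2806 counts and with 3590 and 2540, at ratios of 0.944 and 1.08. Rxrg and the other RXRs can pair with Nr4a1 and Nr4a2, which went opposite ways. Nr4a2 had 182 and 73 counts, a level 1.91-fold higher (1.45 to 2.54), while Nr4a1 had 220 and 354 and was lower by 2.10-fold (1.77 to 2.50). Ppara, a fatty acid receptor, had 34 and 97 counts and was lower by 3.73-fold (2.50 to 5.69). The orphan receptor gene Rorb, which is also counted among the cortical markers, had 506 and 1342 and was lower by 3.47-fold (3.13 to 3.85).

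Genes known to respond to retinoic acid, 13 of 17 with enough reads, had a median log2 ratio of -0.28, and 1 was called higher and 5 lower (total-read scaling gave 2 and 4, and a median of 0.076). The all-gene shares beside these are 9.33% higher and 17.1% lower with TMM, and 31.5% and 9.41% with total reads. All 13 astrocyte markers were lower as well, with a median log2 ratio of -1.55, and their part in the targets' values was not tested. Dhrs3 and Stra6, given above, are among the lower ones. Tgm2, a transglutaminase, had 33 and 60 counts and was lower by 2.38-fold (1.53 to 3.75), and Lhx2, a homeobox gene, had 230 and 490 and was lower by 2.79-fold (2.38 to 3.27). Nrgn, neurogranin, was higher by 1.59-fold (1.5 to 1.69), with 3177 and 1528 counts. The homeobox gene Meis2, the most abundant of the list, had 6841 and 4995 counts, a ratio of 1.05 (1.01 to 1.09).

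A repeat like that of the Rarb promoter, with a 5-base spacer, was in promoters of 31 genes in the RefSeq table, 4 of which had at least 50 counts. Rarb itself is among these 4, of which 0 were called higher and 1 lower. Among all measured genes 9.33% were higher and 17.1% lower, and 4 genes are too few to set against these shares. The lower one was Prokr2, a prokineticin receptor gene, with 33 and 105 counts, and Syndig1, a gene for a synaptic protein, had 233 and 138 counts and a ratio of 1.29 (1.04 to 1.61). Both were named after their values were seen.

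**Figure D5:**
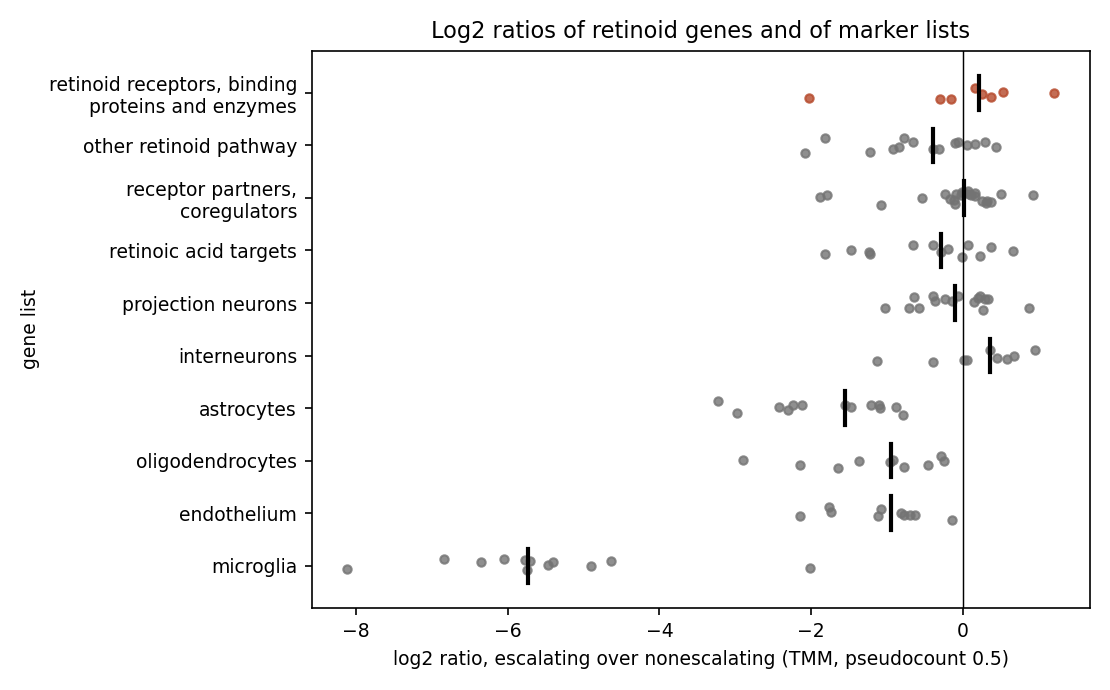
Log2 ratio (escalating over nonescalating, TMM, pseudocount 0.5) of each gene with at least 50 counts, by list; black bars are medians and vertical scatter carries no value. The medians are 0.21 for the described retinoid genes, -0.39 for the other retinoid pathway genes, -1.55 for astrocyte markers and -5.73 for microglial markers.

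The genes nearest to a member over both libraries were found by the distance between log2 CPM values in the 2 libraries. Rarb was nearest to Cacnb1, a calcium channel subunit gene, with 1089 and 638 counts (distance 0.014). Crabp1 was nearest to D10Jhu81e, with 105 and 34 counts (0.014), and Aldh1a1 to Tst, a mitochondrial sulfurtransferase gene, with 99 and 310 counts (0.041). With 2 libraries, nearness says only that both levels were alike.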

How the data were processed

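Per the submitters' processing notes, STAR 2.0.0e and HTSeq made the files on mm10; which HTSeq release, gene models and strand option the authors used is not given in the sources used here. What they deposited is raw counts per gene symbol, 1 library per group, 9548358 (escalating) and 9376097 (nonescalating) reads given to genes. Of all listed reads, 53.8% and 55.3% were given to genes, and the rest stayed out. The makeup of the rest differed between the libraries. Reads in no gene made up 28.6% (escalating) and 18.1% (nonescalating), and reads in more than 1 gene 8.06% and 18.9%. Reads aligned to more than 1 place made up 9.53% and 7.78%. The part of this difference in the ratios was not tested. Groups came from sample titles.

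TMM factors came from edgeR 4.0.16 in R 4.3.3. Log2 ratios used a pseudocount of 0.5 and decided the 1.5-fold call; printed folds used none. No test between groups was possible with 1 library each. Ratios between pairs have exact conditional 95% intervals. Ratios and calls were run on simulated Poisson counts with known folds. Those counts held counting error only, so they check the computation and not the spread between animals or preparations. Lengths, coordinates and overlaps came from GENCODE M21 (build of mm10), promoters from RefSeq. Levels and shares per kilobase thus divide the counts by lengths from gene models that may differ from those used for counting. Python 3.11.15 with scipy 1.17.1 did the rest.

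The members and lists were chosen with earlier results of these data known. Named genes are the members, up to 4 genes per list with the largest ratios and up to 2 with the most reads (a selection is printed), called pathway genes and each member's nearest genes; other genes named, such as family members, genes at 0 and Nrgn, were chosen after their values were seen. Alternatives were 5 scalings (DESeq2 1.42.0 size factors among them), the filter, the pseudocount, the threshold and the length. Some genes of the lists enter the counts and medians but are not reported here by name.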

Additional observations from a re-analysis of the deposited data

How the results depend on the processing

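The sign of the log2 ratio of Crabp1, Aldh1a1, Rarb, Rxra, Rxrb, Rbp4 and Cyp26b1 held under every scaling and pseudocount tried. Each scaling shifts all ratios by one common factor. The TMM intervals of Rxra (0.961 to 1.30), Rbp4 (0.882 to 1.65) and Cyp26b1 (0.597 to 3.07) include 1, so a kept sign does not settle their direction. Rara (-0.25 to 0.21, log2) and Rxrg (-0.39 to 0.064) took both signs. The log2 ratio of Crabp1 ranged from 1.10 to 1.57 and that of Aldh1a1 from -2.12 to -1.67. Scaling to total reads gave log2 ratios of 0.73 for Rarb, 0.52 for Rxra, 0.89 for Rxrb, 0.064 for Rxrg and -1.67 for Aldh1a1, called 4 members, 2 pathway genes, 6 partners and coregulators, 2 targets and 3850 genes in all higher, and 3 pathway genes and 1149 genes in all lower. Upper-quartile scaling called 2 members higher. Scaling to projection neuron reads called 751 genes and 0 targets higher. At a 2-fold threshold 246 genes were higher and 1091 lower in all, with 3 pathway genes lower and 0 partners and 0 targets higher. A filter of 10 counts, or of 1, brought 2 pathway genes and 2 targets higher, since genes with fewer reads then entered. By coding length Rxrg held 46.1% (escalating) and 56.1% (nonescalating) of RXR reads. Aldh1a1 held 83.4% and 98.7% of Aldh1a reads by that length. The other 157 recomputed values stayed within their counting interval, or within 1.5 times for counts and 5 points for shares. That number includes the members' log2 ratios under another threshold or filter, which cannot change them. It is therefore no measure of how robust the results are. No paired analysis was possible because each group has 1 library, and none could be left out. Depth limits Cyp26b1, Aldh1a2 and Lrat, each with under 50 counts.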

Other observations

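Aldh1a2 and Crabp2, which had too few reads to enter the calls, were pathway genes with ratios above 1 whose intervals did not include 1. Aldh1a2, the retinal dehydrogenase of embryonic mesoderm and of meninges, had 20 counts in escalating mice and 4 in nonescalating mice. Crabp2, which delivers retinoic acid to receptors, had 16 and 3 counts, a ratio of 4.08 (1.17 to 21.8). Genes of meningeal fibroblasts did not share one direction: Slc6a13 had 11 and 6 counts, Col1a1 16 and 16, Lum 3 and 4, Dcn 8 and 21 and Col1a2 13 and 31. These values rest on few reads, and the part of meningeal tissue in them was not tested.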
